A study of Caenorhabditis elegans with 2 samples.

Results

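The 6 genes egg-3, egg-4, egg-5, mbk-2, chs-1 and spn-4 act as the Caenorhabditis elegans oocyte becomes an embryo, and they were set against all 19973 protein-coding genes on the 6 chromosomes. egg-5 was chosen by a signal value, since its 5′ end is the coding one nearest to the summit of the strongest region of the pooled list. The other 5 were chosen by their known roles with earlier results of these data in view. The data are chromatin immunoprecipitation and sequencing (ChIP-seq) of SWSN-7, a subunit of the PBAF form of the SWI/SNF chromatin remodelling complex, from whole hermaphrodites in the first larval stage (L1). Strain OP512 was used, with the unc-119 allele tm4063 on chromosome III and the transgene wgIs512, and it stably expresses SWSN-7 tagged at its C-terminus with GFP and FLAG. Both samples, labelled biological replicates 1 and 2, were larvae hatched without food after bleaching and collected 6 h after that synchronization, so there is 1 group and no condition to compare. Precipitation used an antibody against GFP, although a label field gives swsn-7 as the antibody. Chromatin came from all cells of the animal, so a value cannot be assigned to a cell type, and L1 larvae hold neither oocytes nor embryos of their own. The labels name a possible control experiment, which was not analysed here, and read depth is unknown.

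At fertilization in C. elegans the egg completes meiosis, secretes an eggshell and hands control to maternal proteins and mRNAs that were stored in the oocyte. EGG-3, EGG-4 and EGG-5 resemble protein tyrosine phosphatases but lack catalytic activity, and they hold the DYRK-family kinase MBK-2 at the oocyte cortex until the meiotic divisions are under way. Once released, MBK-2 phosphorylates maternal proteins and so marks several of them for destruction. CHS-1 is the chitin synthase that makes the chitin layer of the eggshell, and SPN-4 is an RNA-binding protein that controls the translation of maternal mRNAs in the early embryo.

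The authors' lists give the position, summit and signal value of each entry, where the signal value is the peak caller's measure of enrichment and is comparable within a list only. The IDR list holds 4087 entries that passed a threshold on the irreproducible discovery rate, which asks how well the replicates rank the same regions. It was identical with the entries of the pooled candidate list of 30000 that had a signal value of at least 88.4. An IDR entry lay between 2000 bp upstream of the gene and the gene's end for 3 of the 6 genes, namely egg-5, mbk-2 and spn-4, against 22.4% of all protein-coding genes. A pooled candidate of any strength lay in that window for 6 of 6, against 61.5% of all protein-coding genes. An IDR summit lay in a promoter, taken to reach from 1000 bp before a coding transcript's 5′ end to 500 bp after it, for the same 3 genes, against 15.9% of all. The 6 genes were picked with results known, so these counts describe them and support nothing further. The strongest entry per gene ran from a pooled signal value of 20.3 at egg-3, through 47.7 at egg-4, 83.4 at chs-1, 162.7 at mbk-2 and 389.7 at spn-4, to 5142.4 at egg-5.

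The region beside egg-5 was not centred on egg-5. Its summit lay just before the start of sls-2.4, a small gene for an SL2 RNA, at −48 bp from that gene's 5′ end. SL2 RNAs donate the short SL2 leader that is spliced onto mRNAs, mostly those of downstream genes in operons. The stretches below are the 70 bases before 3 other SL2 RNA genes, shown because the next regions at genes of this kind had the third and the fourth highest signal value of the list and because their summits fall inside these letters. They read 5′ to 3′ on the strand of the gene, end at the base before its start, and carry in capitals the 53 of 70 positions with the same base in all 3. They lie at chrII:5844795-5844864 on the plus strand, chrII:5543528-5543597 on the plus strand and chrII:5544274-5544343 on the minus strand, in ce11. On the opposite strand the stretch before sls-2.2 overlaps the noncoding RNA gene C17C3.23, and that before sls-2.3 overlaps C17C3.22.
sls-2.1: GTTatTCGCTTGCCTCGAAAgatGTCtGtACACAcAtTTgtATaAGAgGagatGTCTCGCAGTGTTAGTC
sls-2.2: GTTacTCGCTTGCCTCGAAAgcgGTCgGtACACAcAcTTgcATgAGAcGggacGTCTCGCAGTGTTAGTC
sls-2.3: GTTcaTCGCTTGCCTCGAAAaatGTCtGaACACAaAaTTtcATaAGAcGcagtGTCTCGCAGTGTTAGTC

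The capitals hold 2 shared runs of 10 or more bases. The run from −65 to −51 has 15 bases, and sls-2.4 had the same base at 15 of these 15 positions. The run from −17 to −1 has 17 bases, and sls-2.4 matched it at 9 of 17. Over all 53 shared positions sls-2.4 had the same base at 42, read without gaps.

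The sequences at mbk-2 and spn-4 are shown because they carry other regions that passed the threshold. For mbk-2 they are 101 bases around the summits of its middle and last regions, at chrIV:13026079-13026179 and chrIV:13030075-13030175, and for spn-4 the whole region of 234 bp at chrV:6785181-6785414, all on the plus strand of ce11. Capitals mark a match to GAGAGA or to AAAAAAAA on either strand. None of these stretches overlaps an annotated exon.
mbk-2, middle region: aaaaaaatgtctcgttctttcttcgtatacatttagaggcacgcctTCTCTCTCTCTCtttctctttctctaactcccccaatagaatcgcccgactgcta
mbk-2, last region: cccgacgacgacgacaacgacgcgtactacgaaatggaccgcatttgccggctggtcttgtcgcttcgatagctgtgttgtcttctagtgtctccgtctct
spn-4: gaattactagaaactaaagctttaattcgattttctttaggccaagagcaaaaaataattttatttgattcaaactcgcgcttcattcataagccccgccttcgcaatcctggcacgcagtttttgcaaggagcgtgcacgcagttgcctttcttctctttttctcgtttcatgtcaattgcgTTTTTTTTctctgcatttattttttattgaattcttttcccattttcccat

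In the 200 bp around each summit, GAGAGA was found in the first and the middle region of mbk-2 and AAAAAAAA in that of spn-4, while CACGTG and TGATAA were found in none of the 5 main regions of the members. Over the 3976 IDR regions left after overlapping entries were merged, 45.7% held GAGAGA, 7.44% CACGTG, 9.36% TGATAA and 11.8% AAAAAAAA in windows of that length. Over the 25913 pooled candidates outside the IDR list, the shares were 19.5%, 4.79%, 17.9% and 19.3% in the same order. Both strands were searched, and a window with several matches was counted once. The GC content of the window was 51.5% at egg-5, 38%, 45.5% and 55% at the 3 regions of mbk-2 and 38.5% at spn-4, against a median of 44% over the IDR regions and 37% over the other candidates.

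egg-5 (WBGene00020035) encodes a pseudophosphatase that binds MBK-2, and it lies on the minus strand at chrI:4168984-4171589, over 2606 bp. Its region spans chrI:4171893-4172635, which is 743 bp and wider than 99.1% of IDR entries, whose median width was 362 bp. The pooled signal value was 5142.4, the highest of the list and 1.59 times the next value of 3233.9. Replicate 1 gave 2593.4 over 681 bp and replicate 2 gave 2527.6 over 604 bp. Both were the top values of their own lists, 1.76 and 1.33 times the next values there, 1473.4 and 1903.1. The summit lay at 4172158 in the pooled list and in replicate 1, and at 4172157 in replicate 2. The rank is what the choice of egg-5 rests on, so it is given as a description.

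The region at egg-5 also holds a weaker summit, 209 bp farther from the gene, with a pooled signal value of 234.8. It was listed in replicate 2 with 169.6, but replicate 1 listed 1 summit there. The deposited −log10 q-values share a ceiling of 4.09 in the pooled list and so do not order these entries.

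Counted from the start of egg-5, the borders of the region were at −304 and −1046 bp, so it overlaps no part of that gene. It holds sls-2.4 whole (WBGene00004836, chrI:4172206-4172315, plus strand, 110 bp), as well as the noncoding RNA gene R12E2.18, which covers nearly the same bases on the minus strand. The main summit was at −48 and the weaker one at 161 bp from the 5′ end of sls-2.4, and the weaker one was nearest to the 5′ end of R12E2.18, at −61 from it. Of the coding genes, egg-5 had the nearest 5′ end on 1 side, 569 bp away, and R12E2.11 on the other, 1466 bp away and with its 3′ end inside the region. Farther upstream lie mrps-6, a mitochondrial ribosomal protein gene, and rpn-8, a proteasome subunit gene, with the main summit 2616 bp downstream of the 5′ end of mrps-6 and at −3161 from that of rpn-8.

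The rest of the window of egg-5 held weak candidates. The pooled list had 24.1 at −1850 and 16.5 at −2071, replicate 1 had 16.8 at −2000 and replicate 2 had 12.8 at −2128. The first of these summits lay in a coding exon of R12E2.11.

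**Figure D1:**
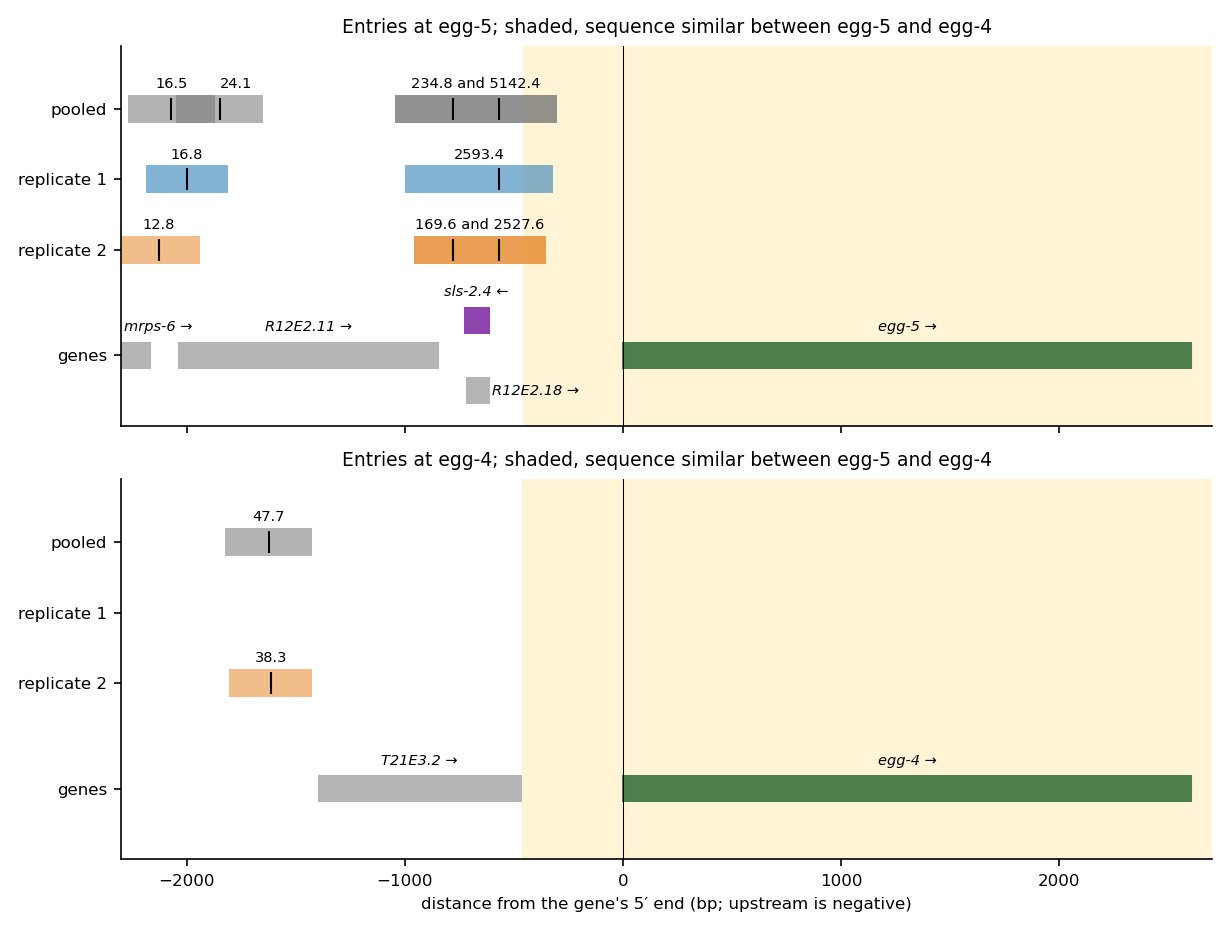
Entries at egg-5 (top) and egg-4 (bottom), drawn by distance from each gene's 5′ end in bp with upstream to the left. Bars are entries of the pooled, replicate 1 and replicate 2 lists, black ticks are summits, numbers are signal values, arrows give the strand relative to the gene, and yellow marks sequence that aligns between the 2 genes. The strong region upstream of egg-5 covers sls-2.4 and has its summit outside the yellow part, and egg-4 has a single weak entry beyond its neighbour T21E3.2.

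egg-4 (WBGene00020652, chrI:3932210-3934813, plus strand) is the paralog of egg-5 and acts beside it. Their annotated proteins have 753 residues each and differ at 6 of them, an identity of 99.2%. The coding sequences were identical at 2239 of 2259 bases. From 5′ to 3′ end the genes were identical at 2576 of 2604 aligned bases, or 98.9%. The likeness went on upstream to −461 at egg-5 and −463 at egg-4, with 374 of 432 aligned bases identical there, or 86.6%. T21E3.2, the neighbour of egg-4, ends just beyond that point. Of the 743 bases of the region at egg-5, 158 lay inside the similar stretch, and the summit at −569 lay outside it.

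egg-4 had no IDR entry. Its window held 1 pooled candidate at chrI:3930386-3930785, with a summit at −1624 and a signal value of 47.7, above 75.7% of the pooled list. Replicate 1 listed none there, and replicate 2 listed 38.3 with a summit at −1615. That summit of the pooled list was 228 bp upstream of T21E3.2 and 2695 bp from T20F5.7 on the other side, so the nearest 5′ end is that of T21E3.2. No SL2 RNA gene lies in the window of egg-4. The pooled signal values beside the paralogs were thus 5142.4 at egg-5 and 47.7 at egg-4, at places that do not align with each other.

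Near-identical genes can share reads, and the sources used here do not say how the authors placed them. In the region at egg-5, 177 of 743 bases, or 23.8%, had a match elsewhere in the genome of at least 30 bp and 90% identity, between positions 4171974 and 4172319. There were 4 such matches, of which 2 lay in other sls-2 genes and 1 covered the summit. The part of these copies in the signal was not tested.

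The annotation holds 18 SL2 RNA genes named sls-2, and they were looked at after the values at sls-2.4 had been seen. For 13 of them an IDR entry overlapped the gene, against 14.4% of the 111 other genes annotated as small nuclear RNA. Where several summits shared a region, the one nearest the gene's 5′ end was taken, which favours short distances. Other summits, such as that at 161 bp from sls-2.4, were left out. All 13 summits so taken lay upstream, from −74 to −21 with a median of −42. Their signal values ran from 105.8 to 5142.4 with a median of 339.1, against a median of 183.3 over all IDR entries. The 13 include sls-2.4, whose value the choice of egg-5 rests on, so the count and the median are descriptions only.

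sls-2.4 was followed by sls-2.1 with 3023.0 in the pooled list, 1442.8 in replicate 1 and 1630.0 in replicate 2, at −48. sls-2.2 had 2808.2 in the pooled list, 1473.4 in replicate 1 and 1419.6 in replicate 2, at −41. Within the same borders as sls-2.2, sls-2.3 had a summit of its own at −59 with 754.5 in the pooled list, 403.6 in replicate 1 and 405.7 in replicate 2. So 3 of the 4 strongest IDR entries were centred just before an SL2 RNA gene. Over the 110 bases of the gene, read without gaps, sls-2.1 shared 100 bases with sls-2.4, sls-2.2 shared 106 and sls-2.3 shared 105, and all 3 had the same first 22 bases. sls-2.8 had 976.5 in the pooled list, with 489.7 in replicate 1 and 484.3 in replicate 2. No IDR entry was listed for sls-2.6, sls-2.10, sls-2.11, sls-2.12 and sls-2.15.

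**Figure D2:**
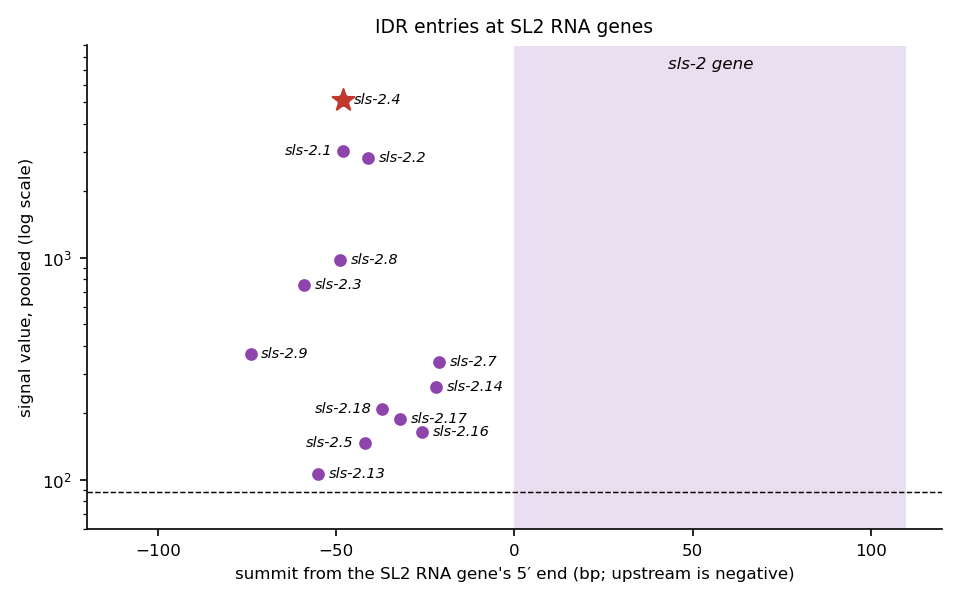
Pooled signal value on a log scale against the distance of the summit from the 5′ end of the gene in bp, for the 13 SL2 RNA genes with an IDR entry; the star is sls-2.4 beside egg-5, the shading is the gene and the dashed line is the lowest IDR value of 88.4. The summit nearest the 5′ end was drawn for each gene, and all 13 sit between −74 and −21 bp.

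By signal value the regions most like that of egg-5 were the next 4 of the IDR list. The first of them, with 3233.9, lay at −283 from rpl-3, a ribosomal protein gene. Next came those at sls-2.1, in the windows of the coding genes H41C03.3 and nep-25, and at sls-2.2, in the window of C17C3.24. The last, with 2635.3, lay at −175 from Y17G9B.5, with the ribosomal protein gene rpl-20 among the other genes whose windows hold it.

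egg-3 (WBGene00009701, chrII:10882408-10884441, minus strand) encodes the third pseudophosphatase of the group, which helps to keep MBK-2 and CHS-1 at the cortex. It is a distant relative: its protein of 555 residues matched EGG-5 at 140 of 527 aligned residues, or 26.6%, and EGG-4 at 26.5%. It had no IDR entry, and its strongest entry was the weakest such entry of the 6 genes. The pooled list gave 20.3 at −1870, above 31.46% of that list, and 17.5 at −1214. Replicate 1 gave 7.6 at −1870 and 12.4 at −1218, and replicate 2 gave 11.7 at −1831. The stronger pooled summit lay upstream of F44F4.3, the next gene on the same strand, at 393 bp from its 5′ end, with the divergent ptr-8 2968 bp away on the other side. The weaker lay inside a coding exon of F44F4.3. No entry of the pooled or replicate lists covered the 5′ end of egg-3 itself.

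mbk-2 (WBGene00003150) encodes the kinase that EGG-3, EGG-4 and EGG-5 restrain. It is by far the longest of the 6, at 26804 bp on the plus strand of chrIV:13009158-13035961, and its transcripts start at 6 places. It had 3 IDR entries, each 400 bp wide and each with its summit in an intron. The first, chrIV:13015802-13016201, had a pooled signal value of 105.2, with 34.4 in replicate 1 and 70.8 in replicate 2. The middle one, chrIV:13025929-13026328, had 162.7, with 76.0 in replicate 1 and 77.1 in replicate 2. The last, chrIV:13029925-13030324, had 114.3, with 62.5 in replicate 1 and 48.0 in replicate 2. Each value is on the scale of its own list.

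Within mbk-2 the middle summit was at −77 from an annotated 5′ end, that of 1 transcript starting inside the gene at 13026206. The last was at −1209 from the 5′ end at 13031334, where 3 transcripts start. The first was 6844 bp downstream of the 5′ end of the gene and 8532 bp upstream of the next transcript start. At the 5′ end of the gene, where 4 transcripts start, the pooled list and replicate 2 had no entry, and replicate 1 listed a weak one of 9.3 with its summit 78 bp inside the gene. Of the first region 39 of 400 bases, or 9.75%, matched 25 other places of the genome, none of them over the summit. The other regions of mbk-2, and that of spn-4, had no such match.

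A long gene meets more entries by its length, so mbk-2 was set beside genes of like size. Its window held 25 pooled candidates, or 0.868 per kb, against a median of 0.293 per kb and quartiles of 0.108 and 0.513 in the 239 coding genes with windows of 20 to 40 kb. Of those genes 92.9% had a lower density. An IDR entry lay in the window of 44.8% of them, and 90.8% had fewer than the 3 of mbk-2. Each replicate's list had 26 entries in the window. The entries nearest in value to the strongest of mbk-2 lay at fkh-7 and dpsm-1, both with 162.8, at sma-2 and ugtp-1 with 162.6 and at kin-29 with 162.3.

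chs-1 (WBGene00000496, chrI:7554855-7559916, plus strand), the eggshell chitin synthase gene, had no IDR entry but came closest to the limit of the list. Its strongest pooled candidate, chrI:7559495-7559894, had 83.4, with 30.2 in replicate 1 and 47.3 in replicate 2. This is just under the lowest IDR value of 88.4, and the lowest value above it among the 6 genes was the 105.2 of mbk-2. The authors' IDR list in ce10 reaches down to 69.8 and holds 2 entries that match this candidate in chromosome, width, summit offset and, within 0.1%, signal value. The summit lay 4840 bp inside the gene, in an intron near its 3′ end, and 144 bp upstream of T25G3.3, the next gene on the same strand. The second strongest had 65.7 at −1117, with 23.9 in replicate 1 and 40.1 in replicate 2, and lay at −106 from the 5′ end of T25G3.1. The pooled list also gave 31.8 at −1706, 15.5 in the 5′ UTR at 136 bp and 18.3 in a coding exon at 3673 bp. The candidate nearest to the annotated 5′ end of chs-1 was thus its weakest.

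spn-4 (WBGene00004984, chrV:6783187-6784903, minus strand) had 1 IDR entry, 234 bp wide, with a pooled signal value of 389.7. Replicate 1 gave 167.6 over 197 bp and replicate 2 gave 224.2 over 194 bp. The pooled value stood above 97.4% of the pooled list and 80.89% of the IDR list. The summit lay between spn-4 and spe-39, a divergent gene for a protein of vesicle transport that spermatids need. It was 409 bp from the 5′ end of spn-4 and 139 bp from that of spe-39, the nearer gene. A weak pooled candidate of 17.9 lay in the 3′ UTR of spn-4 at 1496 bp. The entries nearest in value were those at Y119D3B.12 and mrpl-45 with 390.6, at atx-2 and ecps-1 with 390.5, at cdk-9 and hxk-2 with 388.7, and at F57A8.1 and T06E8.8 with 388.3.

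**Figure D3:**
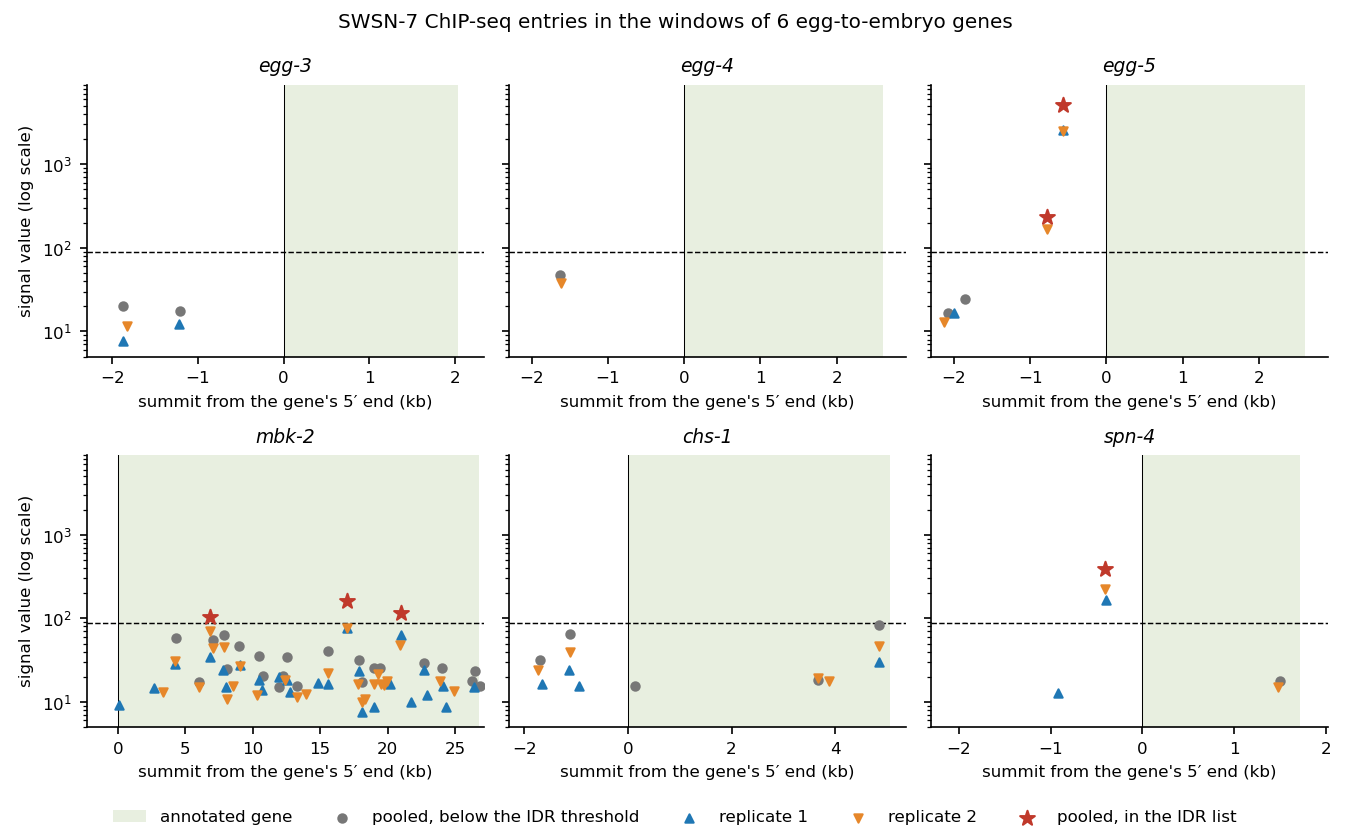
Signal value on a log scale of every entry in the window of each gene, against the distance of its summit from the gene's 5′ end in kb. Stars are pooled entries in the IDR list, circles other pooled candidates, triangles the replicates' entries and green the annotated gene; the dashed line is the lowest IDR value, 88.4, and applies to pooled values. Stars stand upstream of egg-5 and spn-4 and inside mbk-2, and egg-3, egg-4 and chs-1 have none.

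The replicates were compared through the log2 ratio of replicate 2 to replicate 1 at each IDR entry. The value used was the highest of the replicate's entries that overlap it, so summits that share a region carry the same ratio. Values are comparable within a list only, so each ratio is read beside those of the other entries. Over the 4077 entries overlapped in both replicate lists, the median ratio was 0.44 with an SD of 0.44 across entries. The 5th and 95th percentiles were −0.24 and 1.22. The ratio was −0.04 at egg-5, 0.42 at spn-4 and 1.04, 0.02 and −0.38 at the first, the middle and the last region of mbk-2. The last region of mbk-2 thus lay below the 5th percentile, with 2.45% of entries lower, and the other 4 lay inside that range. The ratio at the middle region of mbk-2 was above that of 14.2% of entries. With 2 replicates no spread between samples can be given for a single region beyond these pairs of values.

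**Figure D4:**
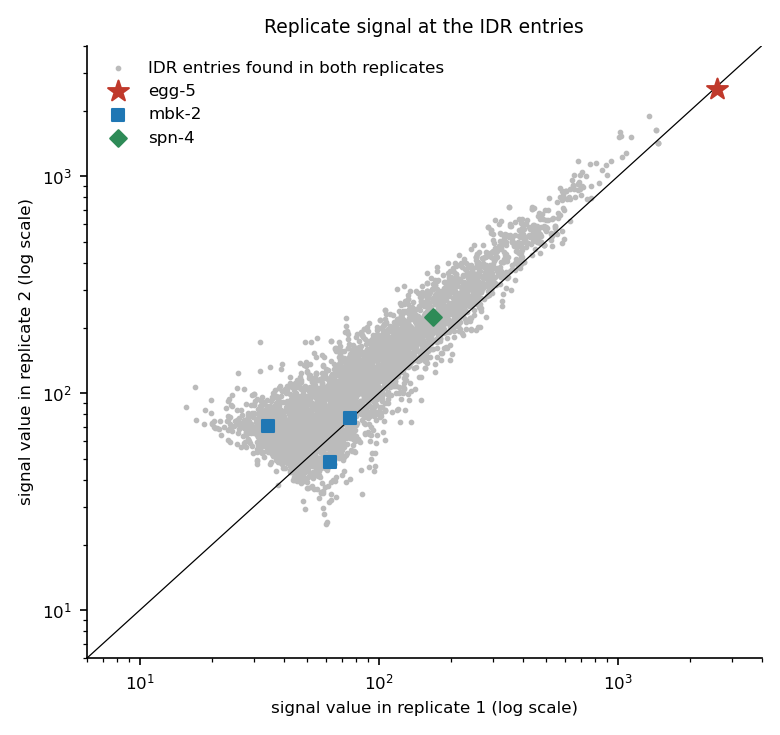
Signal value in replicate 2 against replicate 1, both on log scales, for the IDR entries overlapped in both lists (grey). Each value is the highest that overlaps the entry. Marked are the main region of egg-5 (star), the 3 of mbk-2 (squares) and that of spn-4 (diamond). The line marks equal values. egg-5 stands alone at the upper right, close to the line, and most grey points lie above it.

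The wider pathway was described with 56 other genes in 5 lists, drawn up from known roles with earlier results of these data in view. The counts for the lists are therefore descriptions only. An IDR entry lay in the window of 20 of the 56 genes, or 35.7%, against the 22.4% of all protein-coding genes. An IDR summit lay in a promoter of 15, or 26.8%, against the 15.9% of all. The strongest summit was nearest to another coding gene's 5′ end for 12 of the 20. The share over all coding genes was not computed for this measure, here or for the single lists below. Among all coding genes, 4470 had an IDR entry in the window and 2929 had one by the nearest coding 5′ end alone. When an entry was credited to the gene with the nearest coding 5′ end alone, 8 of 56 list genes had one, or 14.3%, against 14.7% of all protein-coding genes. The strongest IDR entry of these genes had a median signal value of 282.0, against 223.8 with quartiles of 134.6 and 392.8 over the 4470 coding genes with one. The window held a pooled candidate for all but 13 of the 56, against 61.5% of all protein-coding genes.

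Among the eggshell and egg coat genes, an IDR entry lay at 2 of 10, or 20%, against 22.4% of all coding genes. A promoter summit lay at 0, against 15.9%. gna-2, for an enzyme that makes the sugar substrate of chitin, had 467.9, with 183.8 in replicate 1 and 286.7 in replicate 2, and the summit was at −108 from the coding gene T23G11.11 and at −104 from the noncoding gene T23G11.12. cpg-1, for a chondroitin proteoglycan of the eggshell, had 96.5 at −1898, with 48.5 in replicate 1 and 50.9 in replicate 2. A pooled candidate was listed for all but 4 of the 10, against 61.5% of all protein-coding genes.

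Of the genes that sperm need at fertilization, 2 of 8, or 25%, had an IDR entry, against 22.4% of all coding genes. A promoter summit lay at 1, against 15.9%. spe-36 had 583.2, with 263.0 in replicate 1 and 327.0 in replicate 2. spe-42 had 251.7, with 110.7 in replicate 1 and 139.1 in replicate 2. The summit at spe-36 was nearest to the 5′ end of the noncoding gene F40F11.6, at 147 bp, with F40F11.3 the nearest coding gene at 410 bp. The summit at spe-42 was at −221 from npp-22, the nearest coding gene.

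Of the maternal RNA regulators, the list to which SPN-4 would belong, 2 of 15, or 13.3%, had an IDR entry. The share of all coding genes was 22.4%. A promoter summit lay at 1, against 15.9%. mex-1, for a zinc finger protein of the early embryo, had 599.6 at −915, with 242.1 in replicate 1 and 361.9 in replicate 2, and W03C9.5 had the nearest coding 5′ end. lin-41, for a TRIM-NHL protein that restrains oocyte maturation, had 481.7 at −1438, with 167.6 in replicate 1 and 301.7 in replicate 2. A pooled candidate was listed for all but 6 of the 15, against 61.5% of all protein-coding genes.

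The list of the meiotic spindle and its removal had the highest share of the 5 lists, 8 of 10, against 22.4% of all coding genes, and a promoter summit at 7, against 15.9%. For 5 of the 8, among them mei-2 and klp-18, the strongest summit was nearest to another coding gene's 5′ end. The share over all coding genes was not computed for this measure. By the window 4470 coding genes had an IDR entry, and by the nearest coding 5′ end alone 2929 had one. The strongest of the list were mei-2, for a subunit of the microtubule-severing katanin, with 1014.4, and klp-18, for a spindle kinesin, with 412.6. zyg-11, for a substrate adaptor of a CUL-2 ubiquitin ligase, had 374.3 at −713, and cul-3, for the cullin of the ligase that removes katanin after meiosis, had 312.4 at −342. Replicates 1 and 2 gave 410.5 and 610.1 at mei-2, 181.7 and 235.3 at klp-18, 136.7 and 243.0 at zyg-11 and 121.7 and 188.1 at cul-3. The nearest coding 5′ end was that of bag-1 for the summit at mei-2 and that of cogc-2 for the summit at klp-18.

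Among the genes of the meiotic divisions and cell cycle, 6 of 13 had an IDR entry, against 22.4% of all coding genes, and 6 a promoter summit, against 15.9%. For 3 of the 6 the strongest summit was nearest to another coding gene's 5′ end, a measure with no share computed over all coding genes. wee-1.3, for the kinase that holds CDK-1 inactive in oocytes, had 415.6 at −377, with 202.8 in replicate 1 and 215.8 in replicate 2. cyb-1, a cyclin B gene, had 392.8 with 184.5 in replicate 1 and 209.6 in replicate 2, and orc-5 had the nearest coding 5′ end. air-2, for the Aurora B kinase, had 223.9 at −80, with 111.9 in replicate 1 and 114.3 in replicate 2. sep-1, for separase, had 167.5 with 72.8 in replicate 1 and 94.8 in replicate 2, and nefr-1 had the nearest coding 5′ end.

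**Figure D5:**
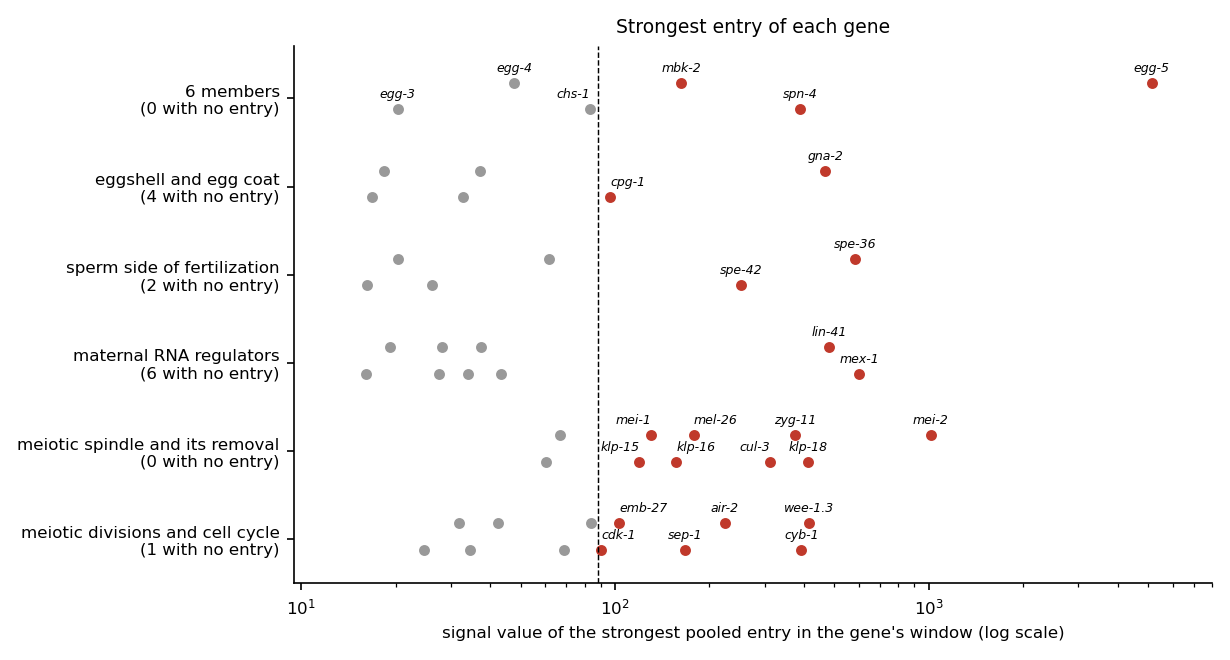
Signal value on a log scale of the strongest pooled entry in the window of each gene, for the 6 genes and the 5 lists, with the number of genes that have no entry. Red points are in the IDR list, grey points are not, and the dashed line is its lowest value, 88.4. The point of egg-5, at 5142.4, stands right of every other gene shown, and the meiotic spindle list has 8 of its 10 genes past the line.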

How the data were processed

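The authors mapped reads to ce10 and ce11, called candidates against a control in each replicate and in the pool of both, and derived the IDR list, per the readme they deposited. Each candidate list holds 30000 entries. The sources used here do not name the aligner, the caller or their versions. The authors' signal value is a score of enrichment, and the deposited −log10 q-values have a ceiling. The deposited summit is an offset in bp. Nearly all replicate entries had a set width of 380 bp (95.1% and 93.8%), as had 91.6% of pooled entries with 400 bp, so a width at these values is the caller's.

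Positions are 1-based in ce11, the WBcel235 assembly, with Ensembl release 115 gene models and the RefSeq genome sequence of that assembly. An entry was credited to every gene whose window it overlapped by at least 1 bp. Python 3.11.15, pandas 2.3.3, numpy 2.4.6, Biopython 1.88 (global protein alignment, BLOSUM62, gap costs 11 and 1), BLAST+ 2.17.0 (megablast) and matplotlib 3.10.9 were used, and the overlap step was tested on simulated intervals. No p-value was computed, since 1 group of 2 replicates allows no comparison of groups and the members were chosen with earlier results of these data known, as were the lists. The text names the 6 genes, the genes with the nearest 5′ ends, up to 4 list genes by signal value and the genes at the regions nearest in value. One list gene and the sequence at one region are not reported here. The SL2 RNA genes were added after their values were seen. Alternatives changed the reach, the overlap rule, the list and the crediting of genes. Trans-splicing removes the start of many C. elegans transcripts, so transcription can begin upstream of an annotated 5′ end.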

Additional observations from a re-analysis of the deposited data

How the results depend on the processing

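An IDR entry was credited to 3 of the 6 genes with a reach of 1000 bp (against 18.9% of coding genes) or 500 bp (16.6%). The count was also 3 with the summit required in the window (21.3%). With replicate 1 or replicate 2 left out it was 3 as well (22.3% and 22.1%). An IDR entry needs both replicates, so these counts rest on the remaining replicate's own entries and are not IDR calls. An entry was credited to 2 genes with the stronger 2043 IDR entries (egg-5 and spn-4), against 13.5% of coding genes. Crediting the nearest coding 5′ end alone also gave 2 (egg-5 and mbk-2), against 14.7%. A setting chosen after seeing the data, as many pooled entries as the 5112 of the ce10 IDR list, gave 4 by adding chs-1. The share of coding genes was then 25.9%. Another such setting, the promoter window, gave 3, against 15.9%. Of the 56 list genes, 20 in the text (35.7%, against 22.4% of coding genes), the count was 13 with a reach of 500 bp (23.2%, against 16.6%), 12 with the stronger IDR entries (21.4%, against 13.5%) and 8 with the nearest coding 5′ end alone (14.3%, against 14.7%). It was 18 with a reach of 1000 bp (32.1%, against 18.9%), 18 with the summit in the window (32.1%, against 21.3%), 21 with the longer pooled list (37.5%, against 25.9%) and 15 with the promoter window (26.8%, against 15.9%). Leaving out replicate 1 or replicate 2 gave 19 each (33.9%, against 22.3% and 22.1%), again from the remaining replicate's own entries. The region at egg-5 ranked 1 in the pooled list, in each replicate and, by the place of a chromosome I entry, in ce10. No paired analysis was possible because there is 1 group and no test. Depth is unknown, so no limit could be set for genes without an entry.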
